A study of Ginkgo biloba with 2 samples.

Results

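The microRNA (miRNA) families miR160, miR167, miR390 and miR393, which act on auxin signalling, were followed in leaves of Ginkgo biloba, a gymnosperm tree with separate female and male plants. They were chosen by name, and all 4 were among the 723 known names in the tables. The study sequenced small RNA of mature leaves from healthy trees about 30 years old under natural conditions, with 1 library of female and 1 of male leaves, and no treatment. The number of trees behind each library is not stated. Every comparison is therefore between these 2 libraries, without a replicate check, and the intervals given reflect nothing but counting error, in PCR reads that carry no molecular identifiers.

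Auxin is the plant hormone that sets organ outgrowth, vein pattern and leaf shape. Cells read it through receptors of the TIR1/AFB type, which remove repressor proteins from the auxin response factors (ARFs), the transcription factors that switch auxin genes on or off. In flowering plants miR393 cuts the receptor transcripts, miR160 cuts repressor ARF transcripts and miR167 cuts activator ARF transcripts. miR390 works through a relay there: it triggers trans-acting small RNAs from TAS3 transcripts, and these silence a further group of ARFs. A miRNA is cut from a hairpin as a duplex of a guide strand, which directs silencing, and a passenger strand, which is mostly lost.

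Each name has 1 listed sequence in each library. These listed sequences show the strand given for a name, and do not settle which strand its counted reads came from. They are printed as deposited, in DNA letters, with the seed (bases 2 to 8) in capitals.
miR160, female: tGCCTGGCtccctgtatgcca
miR160, male: gCTTACAAggagccaagcata
miR167, female: aGATCATGctgcaacttcaac
miR167, male: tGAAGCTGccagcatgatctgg
miR390, female and male: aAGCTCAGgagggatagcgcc
miR393, female: aTGATGGCtctccctttggat
miR393, male: tTCCAAAGggatcgcattgatc
Of the 4 families, only miR390 had the same sequence in both libraries. From flowering plants the guide strands of miR160, miR167 and miR393 are known to begin with U (T here) and that of miR390 with A, the first base favoured by its ARGONAUTE partner. The female listing of miR160, the male listings of miR167 and miR393 and the shared listing of miR390 carry the sequence known there as the guide. The male listing of miR160 began with G, and the female listings of miR167 and miR393 began with A. Thus in 3 of the 4 families a guide strand was listed in one library only, which was the female library for miR160 and the male library for miR167 and miR393. All 7 distinct sequences were 21 or 22 bases long, and the 22-base ones were the male listings of miR167 and miR393. Over all names, 55.7% of female and 56.6% of male listings had 21 bases, and 9.25% and 9.59% had 22. T was the first base of 50.2% of female and 51.7% of male listings. For A these shares were 28.7% and 31.0%, and for G 10.6% and 8.08%. No seed was shared between the 4 families, and 0 other names in either library had the seed of any of them. No other name shared a stretch of 16 or more bases with them on either strand. The longest such stretch was 10 bases. How many of all names had a seed or stretch of their own was not counted, so this does not mark the 4 families as distinct.

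The differing listings of a family paired with each other. For each name with different listings, the female and the male sequence were folded together, with G-U pairs allowed. Capitals now mark the paired bases.
miR160, female: TGCcTGGCTCCcTGTAtGCca
miR160, male: GCtTACAaGGAGCCAaGCAta
miR167, female: AGATCATGCTGCAaCTTCAac
miR167, male: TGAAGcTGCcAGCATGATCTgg
miR393, female: ATgAtgGCtcTCCCTTTGGAt
miR393, male: tTCCAAAGGGAtcGCatTgATc
The miR167 listings formed 18 base pairs at -25.3 kcal/mol, and each strand overhung the other by 2 bases at its 3′ end. For miR160 there were 16 pairs at -24.7 kcal/mol, again with 2-base 3′ overhangs on both strands. Such overhangs are the usual mark of a duplex cut by a Dicer-like enzyme. The miR393 listings formed 15 pairs at -19.8 kcal/mol, just short of the 16 pairs counted here as a duplex, and their ends were offset by 0 and 1 base.

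Pairing of this kind was rare among other names. Across the 188 names with different listings the median was 8 pairs and -6.05 kcal/mol, and 9 names (4.79%) reached 16 pairs. Among these names miR167 had energy rank 3 (1 is the most stable), miR160 rank 4 and miR393 rank 6. Only 4 of the 188 names had 16 or more pairs with 2-base overhangs on both strands, and miR160 and miR167 were among them. The others of these 4 paired more weakly, at -8.7 and -8.3 kcal/mol, so pairs and overhangs alone do not mark a stable duplex. Of 20 families chosen as conserved across land plants, 14 had the same listing in both libraries and 6 had different ones. Of those 6, miR394 and miR396 also reached 16 pairs, at -28.6 and -28.5 kcal/mol, whereas miR398 had 11 pairs at -7.6 kcal/mol. How the authors chose the listed sequence, and whether the reads of a name are of that sequence alone, is not stated.

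**Figure D1:**
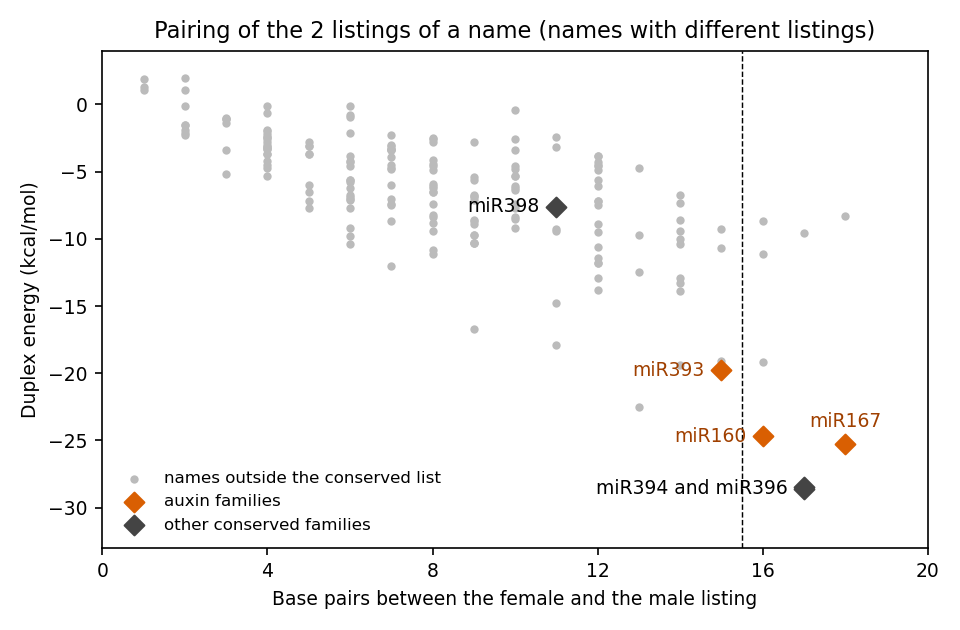
Base pairs (x axis) and duplex energy in kcal/mol (y axis, lower is more stable) between the female and the male listing of each of the 188 names with different listings; the dashed line separates names with 16 or more pairs. miR160 and miR167 lie to its right at -24.7 and -25.3 kcal/mol and miR393 just to its left at -19.8 kcal/mol, while miR394 and miR396 overlap at 17 pairs.

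The library totals were worked out from the deposited counts and levels, as 13193290 reads (female) and 12137619 reads (male). Known miRNA names took 18.7% of the female and 20.2% of the male total. Which reads these totals cover is not stated. One read was worth 0.0758 RPM (reads scaled to the library total, as the files' levels) in the female library against 0.0824 RPM in the male one. The 4 families together had 2716 female and 7304 male reads. That was 0.110% of known miRNA reads in the female library (exact Clopper-Pearson 95% interval 0.106 to 0.114%) and 0.299% in the male library (0.292 to 0.305%). miR167 alone made up 97.1% of these reads in the female library against 98.5% in the male one, so the sum describes little else. Whole leaves were sequenced, and fewer cells with a miRNA cannot be told apart from less of it per cell.

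miR167 stood far above the other families in both libraries, and miR393 was the lowest by its reads. In the female library miR167 stood at 200 RPM (exact Poisson 95% interval 192 to 208), miR160 at 4.17 RPM (3.14 to 5.43), miR390 at 1.44 RPM (0.867 to 2.25) and miR393 at 0.379 RPM (0.123 to 0.884). In the male library miR167 stood at 593 RPM (579 to 607), miR390 at 6.26 RPM (4.93 to 7.84), miR160 at 2.55 RPM (1.74 to 3.63) and miR393 at 0.0824 RPM (0.00209 to 0.459), a single read. By the reads of their names, miR160 and miR390 thus changed places between the libraries, and within each library their intervals did not overlap. For miR160 the guide was listed in the female library and the strand that pairs with it in the male library. The part of this switch in the order was not tested. The closest neighbours elsewhere in the order were miR390 and miR393 in the female library, where the reads of miR390 were 3.8 times those of miR393 (exact conditional binomial 95% interval 1.37 to 13.0).

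**Figure D2:**
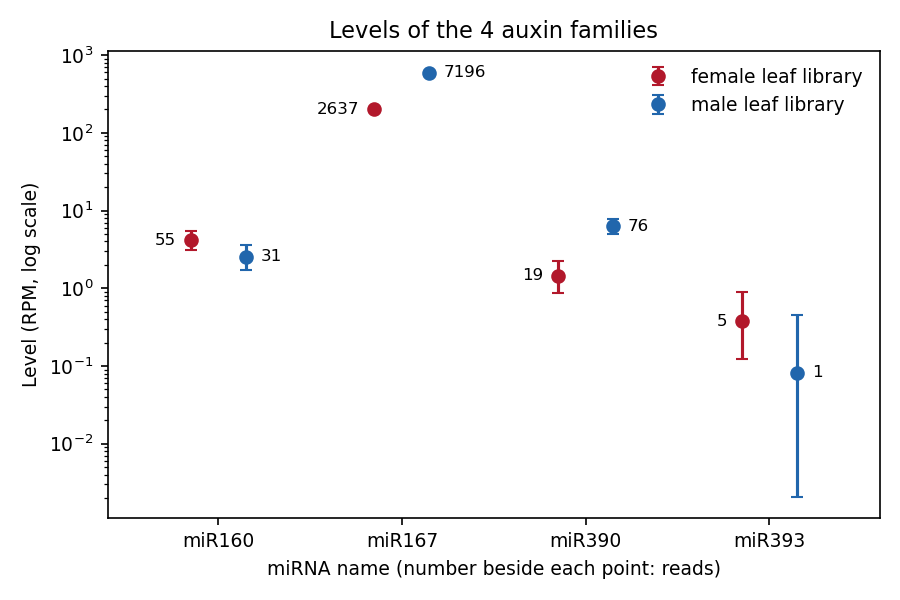
Level in RPM (log scale) of each of the 4 families in the female (red, left) and the male library (blue, right), with exact Poisson 95% intervals of the reads and the number of reads beside each point. miR167 stands more than an order of magnitude above the others in both libraries, miR390 is higher in the male library, and the miR393 intervals are wide.

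miR167, directed at activator ARFs, had 2637 female and 7196 male reads, rank 58 of 530 names found in the female library and rank 35 of 532 in the male library. The level in the female library was lower, with a female over male ratio of 0.337 (exact conditional binomial 95% interval 0.322 to 0.353), a 2.97-fold excess on the male side (2.84 to 3.10). Beside the female count stood the strand that pairs with the guide and beside the male count the guide itself, and the part of this switch in the ratio was not tested.

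miR390, the trigger of the TAS3 relay, allowed the one comparison on the same listed sequence. It had 19 female and 76 male reads, at rank 269 in the female and rank 199 in the male library. The female over male ratio was 0.230 (0.131 to 0.384), so the level was higher in the male library, by 4.35-fold (2.60 to 7.61). Its whole interval lay beyond 2-fold, though it rests on 19 reads in the female library.

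miR160, directed at repressor ARFs, went the other way. It had 55 female and 31 male reads, a female over male ratio of 1.63 (1.03 to 2.62), at rank 209 in the female and rank 240 in the male library. The interval reached close to 1 and did not lie beyond 2-fold. Its guide strand was listed in the female library, where the count was higher, and the strand that pairs with it in the male library.

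miR393, directed at the auxin receptors, was near the limit of detection. It had 5 female reads and 1 male read, at rank 370 in the female and rank 453 in the male library. The female over male ratio of 4.60 had an interval of 0.515 to 218, so no difference in either direction was detectable at this depth. The single male read stood beside the guide strand and the 5 female reads beside the partly pairing other strand.

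Counted by intervals wholly beyond 2-fold, 0 of the 4 families were higher in the female library and 2, miR167 and miR390, were higher in the male library. Over all 723 known names, 125 (17.3%) were higher in the female library against 134 (18.5%) in the male one by the same rule. Log2 of the values plus 1 was also compared at 2-fold for names that reached 10 RPM in either library. Of the 4, miR167 alone reached that level, and it was higher in the male library. There, 68 of 232 names (29.3%) were higher in the female library against 77 (33.2%) in the male one. Differences of this size were thus common, and with 4 families the count says little about them as a group. The median log2 female over male ratio of the 4 was -0.43, against -0.23 over the 339 names with reads in both libraries. Over the 117 names at 10 or more RPM on both sides the median was likewise -0.23, and the ratios here are given without taking out this shift.

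**Figure D3:**
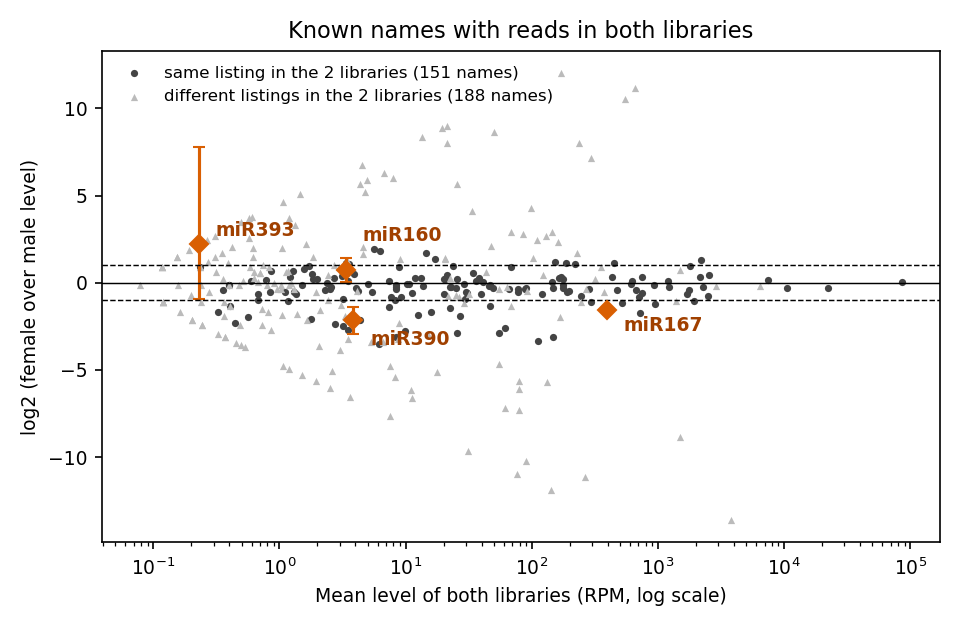
Log2 of the female over the male level (y axis) against the mean level in RPM (x axis, log scale) for the 339 known names with reads in both libraries, with the 4 auxin families as orange diamonds with 95% counting intervals and dashed lines at 2-fold. miR167 and miR390 lie below the lower line, miR160 lies between the lines, and the miR393 interval spans 0; names with different listings (triangles) spread wider than those with the same listing (dots).

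Names with the same listing in both libraries are the fit background for miR390. Of 151 such names, 8 (5.3%) had intervals wholly beyond 2-fold on the female side and 24 (15.9%) on the male side. Among the 188 names with different listings, the background for the other families, these were 38 (20.2%) and 41 (21.8%). That background is a loose one. Some of its names had listings only 1 edit apart (1 base changed, added or lost), against 12 to 14 edits for miR160, miR167 and miR393. At a depth like that of miR390, 50 to 200 reads in the libraries together (a range chosen after its value was seen), there were 28 names with the same listing. Of these, 2 (7.14%) were higher in the female library against 7 (25%) in the male one, with miR390 among those 7. Their log2 ratios ran from -3.53 to 1.95 with a median of -0.32. miR390 stood at -2.12, and 5 of the 28 names were lower still.

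Among the 20 families chosen as conserved, miR167 stood in the upper middle and the other 3 families low. On this list miR167 held rank 8 in both libraries. miR160 held rank 16 (female) and 19 (male), miR390 rank 18 (female) and 16 (male), and miR393 rank 19 (female) and 20 (male). The 4 highest on the list by mean level were miR166 (86581 female and 84277 male RPM), miR168 (2107 and 2477), miR156 (3144 and 1259) and miR397 (2421 and 1909). The list leaves out miR535 (9384 female and 11552 male RPM) and miR529 (2349 and 1219). Ranks and shares therefore hold within the list only. The 4 auxin families made up 0.212% of the reads of the 20 listed families in the female library against 0.623% in the male one. By intervals wholly beyond 2-fold, 1 of the 20 conserved families was higher in the female library against 7 in the male one, with miR167 and miR390 among the 7. The shares over all 723 known names were 17.3% (female) and 18.5% (male). Scaled by the median ratio, 1 and 4 families were left, since miR164, miR169 and miR396 came within 2-fold, and miR167 and miR390 stayed among the 4.

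**Figure D4:**
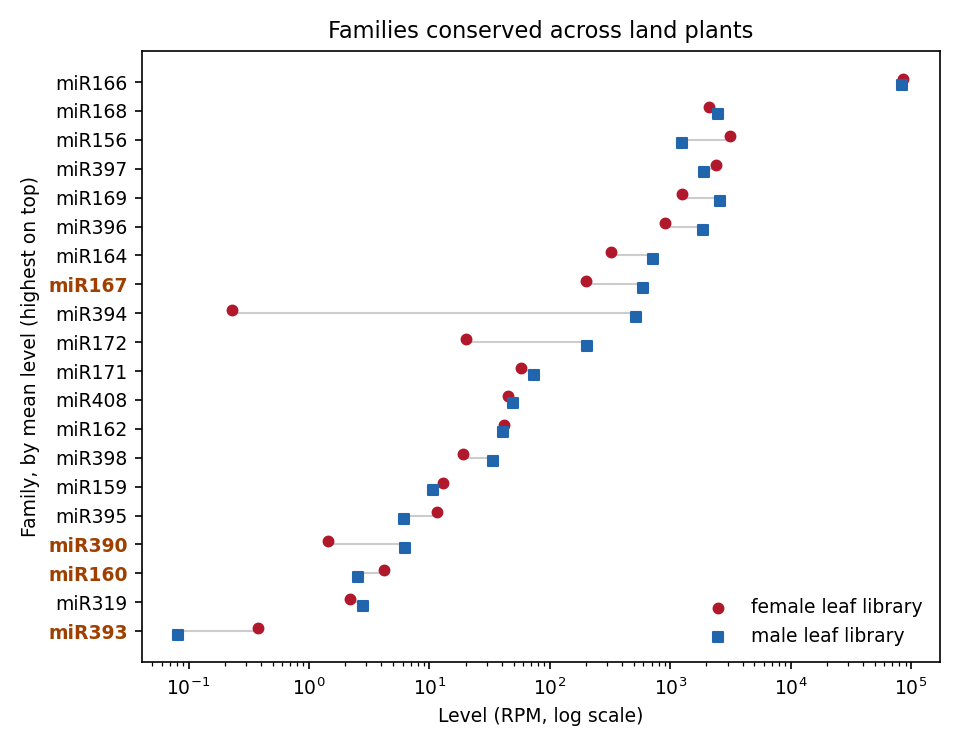
Level in RPM (log scale) of the 20 families chosen as conserved in the female (red circles) and the male library (blue squares), ordered by mean level, with the 4 auxin families in bold. Of these 4, miR167 lies in the upper middle at 200 RPM (female) and 593 RPM (male), and the other families lie at the bottom of the list with miR319.

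By level in both libraries, the names nearest to miR167 were miR1526 (2459 female and 4842 male reads) and miR164 (4261 and 8749), at distances of 0.58 and 0.74 on the log2(RPM + 1) scale. miR390 lay closest to miR1863 (21 and 84 reads) and miR3513 (21 and 86), at 0.15 and 0.18. Closest to miR160 were miR5711 (63 and 28) and miR3435 (46 and 33), at 0.19 and 0.21. miR4344 had the same 5 female reads and 1 male read as miR393, and miR6231 (6 and 1) came next at 0.0772. This likeness rests on 2 libraries and on similar depth.

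A further 7 names tied to auxin, or described as relatives of miR390, were all in the tables. By intervals wholly beyond 2-fold, 1 was higher in the female library (miR5225), 4 in the male library (miR164, miR847, miR391 and miR3627) and 2 were neither (miR4376 and miR7122). Over all 723 known names the shares were 17.3% (female) and 18.5% (male), and 7 names are few to set against them. With scaling by the median ratio, only miR3627 of the 4 kept its interval beyond 2-fold. miR164, which cuts NAC transcripts of organ boundaries and, in Arabidopsis, of auxin-driven root branching, had 4261 female and 8749 male reads with the same listing, 2.23-fold higher in the male library (2.15 to 2.32). miR847, directed in Arabidopsis at an auxin repressor transcript, had 8 female and 33 male reads with different listings, a female over male ratio of 0.223 (0.0890 to 0.492).

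miR391, miR3627, miR4376, miR5225 and miR7122 have been described as evolutionary relatives of miR390. Their listings are shown with the stretch shared with miR390 in capitals, to show how much of it they keep.
miR390, female and male: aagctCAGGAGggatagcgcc
miR391, female: ttcgCAGGAGagatgacgccgg
miR391, male: ctgcgCAGGAGagatgacgtcg
miR3627, female and male: ctggcgCAGGAGagatggcgtc
miR4376, female and male: acgCAGGAGacatgacgccggt
miR5225, female: ccgcgCAGGAaagatgacgc
miR5225, male: cctgcgCAGGAGagatgacgtc
The longest stretch shared with miR390 was CAGGAG in all of these listings but the female one of miR5225, where it was CAGGA. They were 7 to 10 edits from miR390, and the miR7122 listings, 14 edits (female) and 13 edits (male) away, shared no more than 3 bases in a row. CAGGAG, picked after the sequences were seen, occurred in the listings of 7 of 530 female names (1.32%) and 10 of 532 male names (1.88%), or 8 and 10 names when both strands were searched. miR390 and its relatives were 4 of the 7 female and 5 of the 10 male names.

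The relatives differed in direction. miR3627, with the same listing in both libraries, had 33 female and 211 male reads and was 6.95-fold higher on the male side (4.80 to 10.4). miR391 had 18 female and 63 male reads, 3.80-fold higher on the male side (2.22 to 6.83), its listings being different. miR4376 was the most even, at 1059 female and 1217 male reads with the same listing, 1.25-fold higher in the male library (1.15 to 1.36). miR5225 had 7740 female and 50 male reads, 142-fold higher in the female library (108 to 192), with a 20-base listing in the female library against a 22-base listing in the male one. In the male library the miR5225 and miR391 listings shared a stretch of 21 bases, so the split of reads between these names is uncertain. miR7122 had 2 female and 10 male reads.

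**Figure D5:**
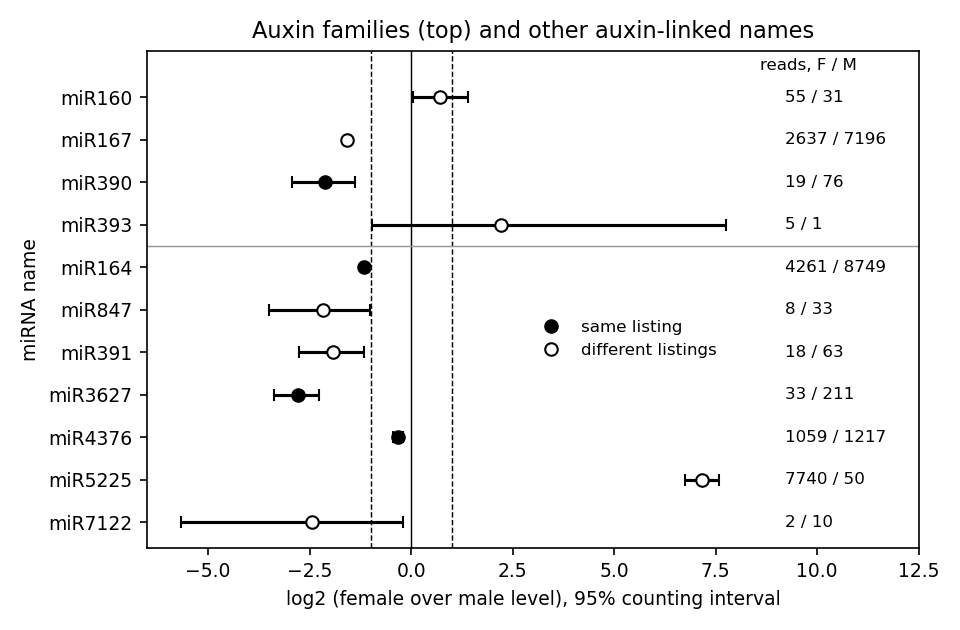
Log2 of the female over the male level (x axis) with exact 95% counting intervals for the 4 auxin families (above the grey line) and 7 other auxin-linked names (below it), with the reads in each library at the right and dashed lines at 2-fold. Filled circles mark names with the same listing in both libraries; miR390 and miR3627 lie on the male side and miR4376 near 0, while miR5225 lies far on the female side.

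The target tables list transcripts that the authors predicted from the sequences, with empty annotation fields, so they describe the listings and measure nothing. miR160 had 3 predicted targets in the female library, CL2770.Contig2, CL2770.Contig3 and Unigene25486, of which the CL2770 contigs share a cluster prefix in their names. In the male library, where the pairing strand was listed, miR160 had none. miR393 had 3 targets in the female library (Unigene7351, Unigene10681 and Unigene22286) and 5 in the male library. The male set held CL7292.Contig1 and CL7292.Contig2 and 3 public sequence records, and 0 targets were shared between the libraries. Among other names with different listings, miR847 (16 female and 13 male targets) likewise shared 0, while miR391 shared its 1. How often targets were shared between the libraries over all names was not counted. miR167 and miR390 had no listed target in either library. No target of the 4 families was listed for another known name, so none was shared with another conserved family. The same held for the miR164 target, but not for that of miR391. How common this was over all names was not counted, so it does not set the 4 families apart.

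Both CL7292 contigs were also listed for predicted miRNAs, 3 of the 155 hairpin arms with targets in the female library and 4 of 158 in the male library, all of them 5p arms. Among these, FLGB-m0087_5p, FLGB-m0106_5p and FLGB-m0107_5p in the female library and MLGB-m0084_5p in the male library each had 34 listed targets, 2 of them shared with miR393.

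A missing target list was not particular to these families. In the female library 380 of 530 names (71.7%) had any target, against 2 of the 4 families, and in the male library 340 of 532 (63.9%), against 1 of the 4. Of the 16 other conserved families, 14 had targets in the female library (miR162 and miR395 had none) and 13 in the male library (miR162, miR394 and miR395 had none). Among the relatives, miR391 and miR3627 had a single target in both libraries and miR5225 in the male library, and in each case it was Unigene21109. No gene name is given to these transcripts, since the tables do not annotate them.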

How the data were processed

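Small RNA of whole mature leaves was sequenced in 2 libraries, 1 female and 1 male, and groups were taken from the labels. The authors deposited raw read counts per known miRNA name beside 1 listed sequence, and levels named TPM by their file names. Each deposited level equalled the read count over 1 library total, so it is given here as RPM. The deposited target tables hold other values, the number and identifiers of predicted transcripts. No label or file header names an aligner, a miRNA database, a target predictor or a genome build. Ratios and intervals were computed with Python 3.11.15 and scipy 1.17.1, pairing with RNAduplex 2.7.2, and figures with matplotlib 3.10.9. The ratio and pairing steps were tested on simulated data.

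No test between the sexes was possible, since each had 1 library, and no p-value was computed. Members and lists were chosen with earlier results of these data known. Named miRNAs were the 4 members, the 2 names nearest each in log2(RPM + 1), names with a stretch of 16 or more bases shared with a member, a fixed list of 7 other auxin-linked names, and, of 20 conserved families, the 4 highest and any that share a target with a member. Predicted miRNAs sharing a target were limited to 4. Conserved families with pairing listings were named after their values were seen. The alternatives were other scalings, pseudocounts, minimum levels, fold thresholds and pairing limits. The level tables of predicted miRNAs were not used here.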

Additional observations from a re-analysis of the deposited data

How the results depend on the processing

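Of 38 recomputed values, 28 stayed within their counting interval or within 1.5 times the count, 10 moved further and 0 reversed. The miR167 log2 female over male ratio of -1.57 became -1.34 with scaling by the median ratio and -1.46 with scaling by the total over known names, and that of miR390, -2.12, became -0.51 with a pseudocount of 10 RPM, which exceeds its levels. Of the 2 families beyond 2-fold, 1 was left among families with the same listing in both libraries, a limit set after the data were examined. The 8 conserved families beyond 2-fold became 5 with scaling by the median ratio, also tried afterwards. The pairing count of 2 families became 1 with 18 pairs or with at most 6 edits from the reverse complement. The 145 known names beyond 2-fold became 249 with no minimum level, 66 at 100 or more RPM and 26 with the same listing (chosen afterwards), over 723, 111 and 96 names in place of 232. Reads of miR393, and the female reads of miR390, limit what depth can show. No paired analysis was possible because each sex had 1 library.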
